A study of Mus musculus with 7 samples.

Results

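The set described here holds 10 genes: 9 integrin chains of macrophages (Itgam, Itgax, Itgal, Itga4, Itga5, Itga6, Itgav, Itgb1 and Itgb2) and Thbs1, which encodes the matrix protein thrombospondin-1. They are 10 of 55417 rows of the count table, found by symbol, and all 10 passed the filter on low counts that left 13329 tested genes. The members were chosen by symbol with their CPM levels in all libraries and their calls already known. Their levels and differences, between the Dpep2 hairpins too, are therefore given as a description, with no p-value. The RNA came from RAW264.7, an established line of mouse macrophage-like cells, into which a short hairpin RNA had been brought to lower Dpep2, which encodes a membrane-bound dipeptidase that cleaves leukotriene D4. Libraries came from cells with the Dpep2 hairpin shDpep2.968 (n = 2), with the Dpep2 hairpin shDpep2.759 (n = 2) or with shNT, the control hairpin (n = 3); no agent other than the hairpins is named, and all the cells carried a hairpin. The labels do not say whether the cells of a hairpin were a clone or a pool, or whether replicates were separate cultures, so the spread behind each p-value is that among these libraries and may be technical.

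Integrins are cell-surface receptors made of 1 alpha and 1 beta chain, and a pair is exported to the surface only once it has formed. In macrophages the beta2 chain (Itgb2, CD18) pairs with the leukocyte alpha chains Itgal (CD11a), Itgam (CD11b) and Itgax (CD11c), which bind ICAMs, complement fragments and fibrinogen. The beta1 chain (Itgb1, CD29) pairs with Itga4, which binds VCAM-1 and fibronectin, with Itga5, the classical fibronectin receptor chain, and with Itga6, a laminin receptor chain, whereas Itgav joins several beta chains to bind vitronectin and other RGD ligands. Thrombospondin-1 is a secreted glycoprotein that binds CD36, CD47 and integrins and can activate latent TGF-beta.

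Total counts ran from 16548648 to 18401060 per library. Levels are CPM, counts scaled to the library's size after TMM, a scaling that corrects for differences in composition between libraries. Dpep2 itself had 22.4 and 17.9 CPM in the shDpep2.968 libraries, 24.9 and 19.5 CPM in the shDpep2.759 libraries and 55.6, 60.3 and 52.1 CPM in the shNT libraries. Of 9 macrophage markers 8 were tested and 2 rose in the average of both hairpins, where 3.44% of all tested genes rose. The summed level of the 9 was 12471 to 12530 CPM with shDpep2.968, 14106 to 17334 CPM with shDpep2.759 and 11396 to 12591 CPM with shNT. Most of this sum came from Lyz2, and Mertk had 0 to 6 counts per library. The summed level of 6 neutrophil markers was 34.1 to 50.3 CPM with shDpep2.968, 99.99 to 237 CPM with shDpep2.759 and 17.3 to 33.7 CPM with shNT, nearly all of it from S100a8, while Ly6g and Ltf had 0 counts in every library. The summed level of 7 fibroblast markers was 2.20 to 2.42 CPM, 3.53 to 3.69 CPM and 0.786 to 1.86 CPM in the same 3 groups, with Col1a2 at 0 counts. Of the 2 fibroblast markers tested 1 rose in the average of both hairpins. In the neutrophil, dendritic cell, platelet, endothelial and lymphocyte lists no tested marker was called. The summed level of 7 dendritic cell markers was 1.27 to 1.61 CPM with shDpep2.968, 4.26 to 4.92 CPM with shDpep2.759 and 1.64 to 2.24 CPM with shNT, with Cd209a at 0 counts and Ccr7 at 11 and 6, 56 and 55, and 12, 7 and 9 counts in those groups. Sums of the platelet, endothelial and lymphocyte lists reached at most 7.13 CPM in any library.

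Thbs1 was the member that differed most from the control hairpin in the average of both hairpins, with a higher level with shDpep2.759 than with shDpep2.968. In such bulk RNA, fewer cells with a transcript and less of it per cell cannot be told apart. Thbs1 had 3.70 and 3.34 CPM in the shDpep2.968 libraries, 9.54 and 10.5 CPM in the shDpep2.759 libraries and 2.24, 1.81 and 1.62 CPM in the shNT libraries. The 3 groups did not overlap, and the shDpep2.759 libraries were the highest. These levels rest on 64 and 58 counts, 170 and 179 counts, and 37, 33 and 29 counts. The level was 5.30-fold that of shNT with shDpep2.759 (log2 fold change 2.41, SE 0.22, 95% interval 1.93 to 2.88) and 1.87-fold with shDpep2.968 (log2 fold change 0.90, SE 0.24, 95% interval 0.39 to 1.41). Between the hairpins, Thbs1 was lower with shDpep2.968 than with shDpep2.759 by a log2 difference of -1.51 (SE 0.24, 95% interval -2.02 to -0.99). It was -1.57 without shDpep2.968 replicate 1 and -1.44 without replicate 2. The Lyz2-led macrophage sum, the S100a8-led neutrophil sum, the fibroblast sum and the dendritic cell sum given above were likewise highest in both shDpep2.759 libraries. The part of these sums in the Thbs1 and Itga5 results was not tested.

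Itga5 showed the same order of groups at a much higher count. Itga5 had 266 and 228 CPM in the shDpep2.968 libraries, 439 and 459.5 CPM in the shDpep2.759 libraries and 207, 216 and 202 CPM in the shNT libraries. Both shDpep2.759 libraries lay far above the rest, and both shDpep2.968 libraries lay a little above all shNT libraries. With shDpep2.759 Itga5 was at 2.16-fold of the shNT level (log2 fold change 1.11, SE 0.12, 95% interval 0.85 to 1.37), and with shDpep2.968 at 1.19-fold (log2 fold change 0.25, SE 0.12, 95% interval -0.02 to 0.51). Itga5 was lower with shDpep2.968 than with shDpep2.759 by a log2 difference of -0.86 (SE 0.13, 95% interval -1.15 to -0.57). It was -0.96 without shDpep2.968 replicate 1 and -0.76 without replicate 2.

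**Figure D1:**
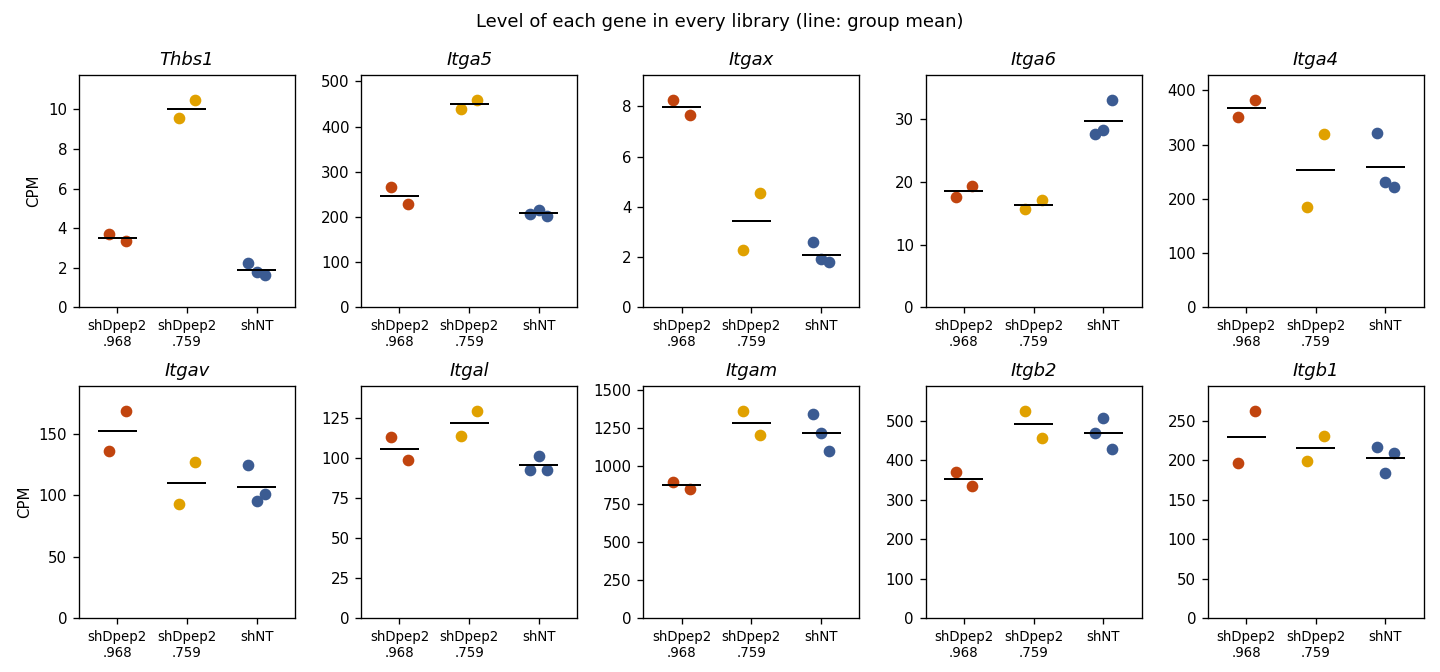
Level of each of the 10 genes in CPM (vertical axes, each starting at 0) in every library of shDpep2.968, shDpep2.759 and shNT; points are libraries and lines are group means. Thbs1 and Itga5 are highest in both shDpep2.759 libraries (9.54 and 10.5 CPM; 439 and 459.5 CPM), Itgax is highest in both shDpep2.968 libraries (8.27 and 7.66 CPM), and Itga6 is below every shNT library in all 4 Dpep2 hairpin libraries.

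The promoter of Itga5 in RefSeq's GRCm38.p6 annotation, the window from 250 bases before to 50 bases after the annotated start, is shown because Itga5 had the higher level of the 2 members past the threshold between the hairpins. It lies at chr15:103366742-103367041 on the minus strand, and capitals mark the GC box GGGCGG or its complement. The search covered both strands and found 2 matches here; 35.7% of 32851 promoter windows of that length hold at least 1. A match describes letters and says nothing about binding. Thbs1 has no entry in the promoter table.
Itga5: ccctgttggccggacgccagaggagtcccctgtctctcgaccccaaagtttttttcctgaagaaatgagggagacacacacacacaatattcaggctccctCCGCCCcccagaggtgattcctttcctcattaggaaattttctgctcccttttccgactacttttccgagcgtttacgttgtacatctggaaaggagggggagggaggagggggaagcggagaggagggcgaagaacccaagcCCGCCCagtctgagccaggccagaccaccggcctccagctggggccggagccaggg

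Itgax had the opposite pattern, with the higher level in the shDpep2.968 libraries. Itgax had 8.27 and 7.66 CPM in the shDpep2.968 libraries, 2.30 and 4.57 CPM in the shDpep2.759 libraries and 2.60, 1.92 and 1.79 CPM in the shNT libraries. The shDpep2.968 libraries lay above all others, while shDpep2.759 replicate 1 fell within the shNT range. The level was 3.79-fold that of shNT with shDpep2.968 (log2 fold change 1.92, 95% interval 1.30 to 2.54) and 1.63-fold with shDpep2.759 (log2 fold change 0.71, 95% interval 0.05 to 1.36). The difference between hairpins was 1.21 on the log2 scale (95% interval 0.54 to 1.89). It was 0.80 without shDpep2.759 replicate 1 and 1.80 without shDpep2.759 replicate 2, so the size rests on which shDpep2.759 library is kept.

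Itgam, the most abundant member, lies directly before Itgax in the RefSeq gene order of chromosome 7, and the levels of these neighbours lay on opposite sides of shNT with shDpep2.968. Itgam had 896 and 846 CPM in the shDpep2.968 libraries, 1363 and 1203 CPM in the shDpep2.759 libraries and 1340.3, 1214 and 1097 CPM in the shNT libraries. Both shDpep2.968 libraries were below all others, and the shDpep2.759 libraries overlapped the shNT range. The log2 fold change against shNT was -0.48 with shDpep2.968 (95% interval -0.78 to -0.19) and 0.08 with shDpep2.759 (95% interval -0.21 to 0.36). Between the hairpins the log2 difference was -0.56 (95% interval -0.88 to -0.24).

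Itgb2, the beta chain that both Itgam and Itgax need, had the same order of groups as Itgam. Itgb2 had 369.5 and 334 CPM in the shDpep2.968 libraries, 526 and 457 CPM in the shDpep2.759 libraries and 469.7, 508 and 428 CPM in the shNT libraries. Again the shDpep2.968 libraries were the lowest and the shDpep2.759 libraries overlapped shNT. The log2 difference between the hairpins was -0.48 (95% interval -0.80 to -0.17). Itgal, the alpha chain of lymphocyte function-associated antigen, had 113 and 99.0 CPM in the shDpep2.968 libraries, 114 and 130.0 CPM in the shDpep2.759 libraries and 92.9, 101.5 and 92.8 CPM in the shNT libraries. Its shDpep2.759 libraries were above all shNT libraries and its shDpep2.968 libraries overlapped them (log2 difference between hairpins -0.20, 95% interval -0.49 to 0.09).

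The promoter windows of the neighbours Itgam (chr7:128062390-128062689, plus strand) and Itgax (chr7:128129300-128129599, plus strand) are set side by side because these levels lay on opposite sides of shNT with shDpep2.968. Capitals mark the PU.1 core GAGGAA or its complement in Itgam and the AP-1 motif TGANTCA in Itgax. On both strands Itgam had 3 PU.1 core matches and Itgax 0, and 28.3% of all promoter windows hold at least 1. Itgax had 1 AP-1 match and Itgam 0, and 7.81% of windows hold at least 1. The GC box GGGCGG had 1 match in Itgam and 0 in Itgax, and Itga5 had 1 PU.1 core match. The NF-kB pattern had 2 matches in Itgam, which overlap each other, and is found in 50.8% of windows. The E-box CACGTG (7.15% of windows) and the TATA box TATAAA (13.6%) had 0 matches in all 3 windows. These counts describe letters in 300-base windows only.
Itgam: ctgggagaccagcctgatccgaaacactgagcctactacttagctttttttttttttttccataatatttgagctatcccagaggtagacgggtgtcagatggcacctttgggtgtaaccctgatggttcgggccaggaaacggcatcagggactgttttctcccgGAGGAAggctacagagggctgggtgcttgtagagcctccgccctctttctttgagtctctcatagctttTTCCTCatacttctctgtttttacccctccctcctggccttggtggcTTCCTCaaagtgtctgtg
Itgax: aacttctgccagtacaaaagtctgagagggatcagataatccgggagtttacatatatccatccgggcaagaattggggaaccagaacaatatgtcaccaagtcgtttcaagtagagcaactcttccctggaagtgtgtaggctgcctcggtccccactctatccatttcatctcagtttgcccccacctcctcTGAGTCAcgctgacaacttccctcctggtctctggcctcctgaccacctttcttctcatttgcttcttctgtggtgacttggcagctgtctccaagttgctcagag

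Part of the Itgam transcript is shared with other annotated genes, which bears on how reads were assigned. Of the 31-base words of its longest coding transcript in GENCODE M21, 74.1% also occurred in other genes, mostly in Gm49368, an overlapping coding locus. Gm49368 had 384 to 610 counts per library, 1.86% to 2.98% of its sum with Itgam. Itgax shared 12.7% of its words, all with Itgad, which had 0 counts in every library. The share was 0 for Itga5, Itgal and Itgb1, 13.2% for Itga4, mostly with the overlapping Cerkl (32 to 71 counts), and at most 6.92% for the other members.

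Itga6 was lower with either hairpin, and the interval of its difference between the hairpins included 0. Itga6 had 17.6 and 19.4 CPM in the shDpep2.968 libraries, 15.6 and 17.1 CPM in the shDpep2.759 libraries and 27.7, 28.3 and 33.1 CPM in the shNT libraries. No Dpep2 hairpin library reached the lowest shNT library. The level was 62.4% of shNT with shDpep2.968 (log2 fold change -0.68, 95% interval -0.99 to -0.37) and 55.1% with shDpep2.759 (log2 fold change -0.86, 95% interval -1.18 to -0.55). The log2 difference between the hairpins was 0.18 (95% interval -0.16 to 0.52).

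Itga4 and Itgav differed widely between the libraries of 1 group. Itga4 had 351 and 383 CPM in the shDpep2.968 libraries, 186 and 320.2 CPM in the shDpep2.759 libraries and 321, 232 and 221 CPM in the shNT libraries. The shDpep2.968 libraries were the highest, while the shDpep2.759 pair overlapped the shNT range (log2 difference between hairpins 0.54, 95% interval -0.03 to 1.10). Itgav had 136 and 169 CPM in the shDpep2.968 libraries, 93.4 and 127 CPM in the shDpep2.759 libraries and 124.5, 95.2 and 101 CPM in the shNT libraries. It had the same arrangement, with a log2 difference between hairpins of 0.47 (95% interval 0.08 to 0.86). Without shDpep2.759 replicate 2 the differences were 0.99 for Itga4 and 0.72 for Itgav, over 1.5 times as large. Without shDpep2.759 replicate 1 they shrank to 0.20 for Itga4 and 0.27 for Itgav, so both sizes rest on which shDpep2.759 library is kept.

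Itgb1, the shared partner of Itga4, Itga5 and Itga6, overlapped between all groups. Itgb1 had 197 and 263 CPM in the shDpep2.968 libraries, 199.9 and 231 CPM in the shDpep2.759 libraries and 217, 185 and 209 CPM in the shNT libraries. The log2 fold change was 0.18 with shDpep2.968 (95% interval -0.14 to 0.49) and 0.08 with shDpep2.759 (95% interval -0.23 to 0.40), and the difference between hairpins was 0.09 (95% interval -0.25 to 0.44).

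**Figure D2:**
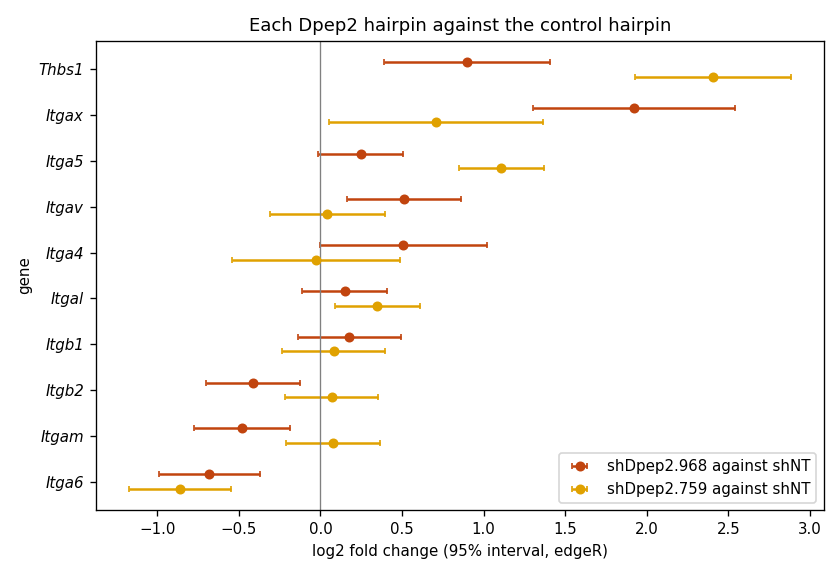
Log2 fold change (horizontal axis) of each of the 10 genes (vertical axis) with shDpep2.968 and with shDpep2.759, each against the same shNT libraries; points are edgeR estimates and bars 95% intervals. Thbs1 reaches 2.41 with shDpep2.759 and 0.90 with shDpep2.968, Itgax 0.71 and 1.92, and Itga6 lies below 0 with both hairpins.

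Counted over the set, 4 of 10 members were past an edgeR adjusted p of 0.05 in the average of both hairpins against shNT, with Thbs1, Itgax and Itga5 higher and Itga6 lower, where 7.59% of all tested genes were called (3.44% higher and 4.15% lower). With shDpep2.968 alone 3 members were past it (Itgax, Thbs1 and Itga6; 5.25% of all tested genes), and with shDpep2.759 alone 3 (Thbs1, Itga5 and Itga6; 4.73%). The libraries of 3 members did not overlap in the averaged contrast, of 8 members with shDpep2.968 and of 4 members with shDpep2.759, where the libraries of 18.5%, 43.4% and 36.3% of all tested genes did not overlap. The members were chosen with these contrasts known, so nothing is read from these counts. In the averaged contrast the Itgax call was lost without shNT replicate 2 or 3, at log2 fold changes of 1.24 and 1.21. With shDpep2.968 alone, the calls of Thbs1 and Itga6 were lost without either shDpep2.968 library or without shNT replicate 2 or 3, at log2 fold changes from 0.81 to 0.97 for Thbs1 and from -0.75 to -0.59 for Itga6; with DESeq2 that Thbs1 call was lost too, at 0.91. With all Dpep2 hairpin libraries as 1 group, Itga6 alone was called. The median log2 fold change over the members was 0.24 in the averaged contrast, against 0.00 over all tested genes.

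Between the hairpins, 2 of the 10 members, Thbs1 and Itga5, were past the threshold, where 0.84% of all tested genes were called (0.255% higher and 0.585% lower with shDpep2.968). As these levels were known when the members were chosen, nothing is read from this count. Both were no longer past the threshold without either shDpep2.968 library, nor was Itga5 without shNT replicate 3, at log2 differences from -1.57 to -1.44 for Thbs1 and from -0.96 to -0.76 for Itga5. With DESeq2, or with no filter on low counts, 5 members were past it. The genes called in all were then 376 with DESeq2 and 669 with no filter, against 112 in the main fit, so the 0.84% does not apply to them. The libraries of 9 members did not overlap between the hairpins, where those of 42.9% of all tested genes did not. Thbs1 and Itga5 were lower with shDpep2.968 than with shDpep2.759. The median log2 difference over the members was -0.05, against -0.01 over all tested genes.

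**Figure D3:**
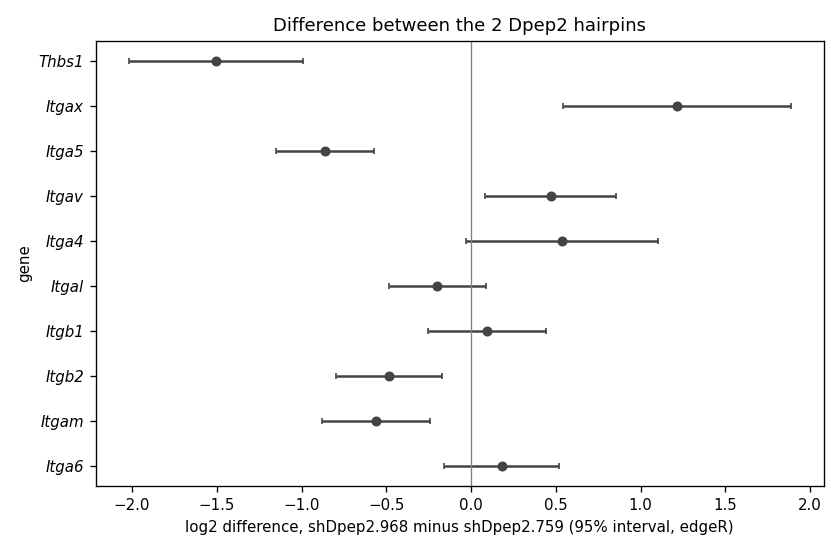
Log2 difference between the hairpins, shDpep2.968 minus shDpep2.759 (horizontal axis), for each of the 10 genes (vertical axis); points are edgeR estimates and bars 95% intervals. Thbs1 at -1.51 and Itga5 at -0.86 lie below 0, Itgax at 1.21 above it, and the intervals of Itgb1, Itgal, Itga4 and Itga6 include 0.

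Levels of different genes were compared per kilobase of the longest coding transcript in GENCODE M21, as CPM per kilobase over all 7 libraries. Itgam was the highest (mean 243, range 181 to 291), followed by Itgb2 (149, 113 to 177), Itga5 (65.8, 46.1 to 105) and Itgb1 (56.3, 48.4 to 69.0). Below them came Itga4 (29.5, 19.0 to 39.2), Itgal (20.3, 17.8 to 24.9), Itgav (17.1, 13.2 to 24.0), Itga6 (5.26, 3.62 to 7.68), Itgax (1.03, 0.442 to 2.04) and Thbs1 (0.80, 0.277 to 1.79). The ranges of Itga5 and Itgb1, of Itga4, Itgal and Itgav, and of Itgax and Thbs1 overlapped, and the other neighbours in this order did not. The order of overlapping genes turned with the group: Itga5 averaged 56.4, 102.5 and 47.5 CPM per kilobase with shDpep2.968, shDpep2.759 and shNT, and Itgb1 60.3, 56.5 and 53.4, so that Itga5 was the higher with shDpep2.759 alone. Itgax averaged 1.97, 0.849 and 0.519 CPM per kilobase in the same groups and Thbs1 0.602, 1.71 and 0.323, so that Thbs1 was the higher with shDpep2.759 alone. Per kilobase of coding length, Itga4 (mean 92.9) stood beside Itga5 (91.2) and Itgb1 (89.6), since its transcript is annotated with a long untranslated part.

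Within a library the alpha chains can be set against each other. Itga5 made up 43.5% to 50.5% of the CPM per kilobase of Itga4, Itga5, Itga6 and Itgav with shDpep2.968, 65.7% to 73.6% with shDpep2.759 and 45.3% to 52.9% with shNT. The share of Itga5 was thus highest in both shDpep2.759 libraries, and the shares in the other groups overlapped. Itga6 made up 3.41% to 3.76%, 2.49% to 2.66% and 6.17% to 8.46% in the same groups. Among the beta2 partners Itgal, Itgam and Itgax, Itgax made up 0.940% to 0.950% with shDpep2.968, 0.181% to 0.399% with shDpep2.759 and 0.170% to 0.211% with shNT, and Itgam 88.97% to 93.9% over all libraries. The summed level of these alpha chains over that of Itgb2, both per kilobase, was 1.73 to 1.79 with shDpep2.968, 1.77 to 1.84 with shDpep2.759 and 1.63 to 1.93 with shNT, so the groups overlapped. Per kilobase of coding length the mean share of Itga5 was 31.2% with shDpep2.968, 54.4% with shDpep2.759 and 34.5% with shNT.

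**Figure D4:**
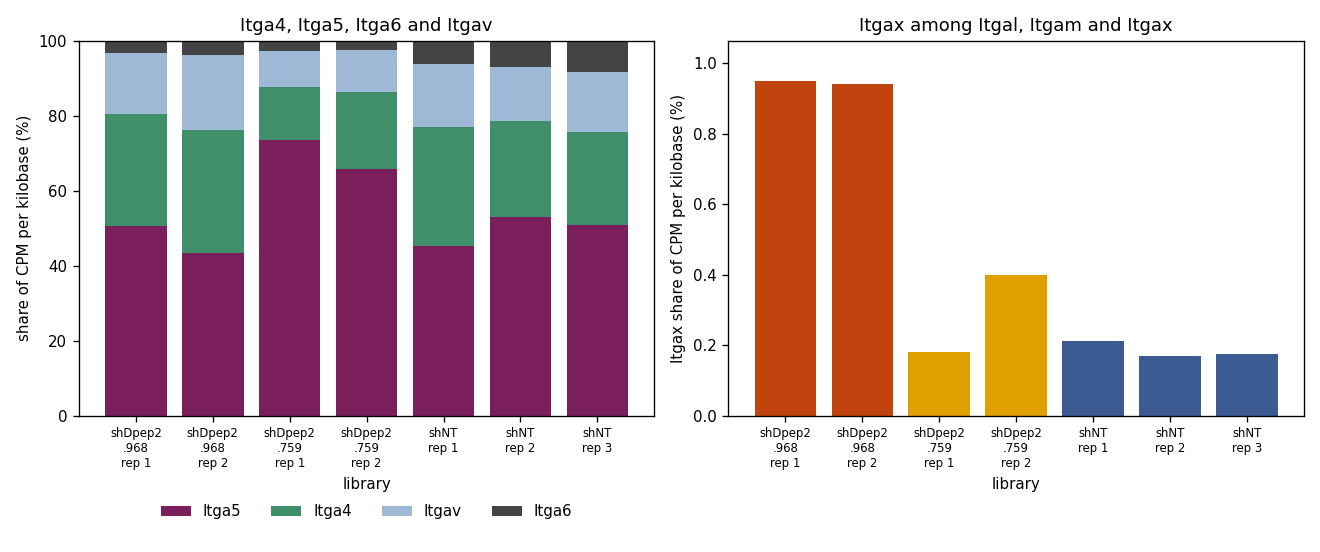
Share of CPM per kilobase in percent (vertical axes) in each of the 7 libraries (horizontal axes): the left panel stacks Itga5, Itga4, Itgav and Itga6, and the right panel gives Itgax among Itgal, Itgam and Itgax. Itga5 is largest in both shDpep2.759 libraries (65.7% to 73.6%) and Itgax in both shDpep2.968 libraries (0.940% to 0.950%).

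The genes whose profile over the 7 libraries lay nearest to a member were found by the root-mean-square distance between mean-centred log2 CPM values among 9520 genes of at least 5 CPM. For Thbs1 they were Il36g, a cytokine of the IL-1 family (distance 0.25), the activation marker Cd83 (0.27) and the formyl peptide receptor Fpr1 (0.27). Il36g had 11.1 and 13.8 CPM in the shDpep2.968 libraries, 42.6 and 39.8 CPM in the shDpep2.759 libraries and 12.6, 6.68 and 6.65 CPM in the shNT libraries. For Itgax they were the netrin receptor neogenin Neo1 (0.26), the osteoclast fusion gene Ocstamp (0.36) and the macrophage elastase Mmp12 (0.36). Neo1 had 14.0 and 14.6 CPM in the shDpep2.968 libraries, 6.79 and 9.49 CPM in the shDpep2.759 libraries and 4.77, 4.66 and 3.02 CPM in the shNT libraries. For Itga6 they were Ahi1 (0.06), the sterol synthesis enzyme Cyp51 (0.09) and Hps3 (0.10), and Cyp51 had 30.8 and 37.0 CPM in the shDpep2.968 libraries, 31.1 and 29.2 CPM in the shDpep2.759 libraries and 56.7, 55.1 and 59.6 CPM in the shNT libraries.

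Other adhesion genes were taken from 8 lists that were also chosen with earlier results of these data known, so the share of a list that was called is a description and not independent evidence. Other integrin chains were lower or did not pass the threshold in the average of both hairpins against shNT. Of 17 listed chains 8 were tested, and 2 fell and 0 rose (25.0% called, against 7.59% of all tested genes; median log2 fold change -0.63, against 0.00). Itgb5, a partner of Itgav, fell to 42.8 and 41.5 CPM in the shDpep2.968 libraries and 45.6 and 39.5 CPM in the shDpep2.759 libraries, with 53.5, 64.9 and 70.8 CPM in the shNT libraries (log2 fold change -0.57, SE 0.12; edgeR adjusted p = 0.0101). Itgb4, the laminin-binding partner of Itga6, fell by 0.91 on the log2 scale (SE 0.19; edgeR adjusted p = 0.0121), and averaged 4.62 ± 1.56 CPM with shDpep2.968, 5.19 ± 0.12 CPM with shDpep2.759 (SD, n = 2 each) and 9.18 ± 1.55 CPM with shNT (SD, n = 3). Leaving out shNT replicate 2 ended both calls (adjusted p = 0.0509 and 0.0896), as did leaving out shNT replicate 3 (adjusted p = 0.0772 and 0.0534). Itgb7, the other partner of Itga4, and Itga7 had log2 fold changes of 0.06 and -0.49 that did not pass.

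Of the proteins that link integrins to the cytoskeleton and to kinases, 3 rose and 1 fell among 45 tested of 50 listed, a share of 8.89% near the 7.59% of all genes. Src, the kinase that acts behind engaged integrins, rose 2.27-fold (log2 fold change 1.18, SE 0.14; edgeR adjusted p = 0.000504). It had 12.8 and 12.2 CPM in the shDpep2.968 libraries, 10.2 and 10.95 CPM in the shDpep2.759 libraries and 5.14, 4.82 and 5.25 CPM in the shNT libraries, with no overlap. The adaptor Crk rose 1.40-fold and the kinase Syk 1.33-fold, and Rassf5 (RAPL), a Rap1 effector that activates leukocyte integrins, fell by 0.52 on the log2 scale (edgeR adjusted p = 0.0113, 0.0262 and 0.0148). Without shNT replicate 2 those 3 were not called (adjusted p = 0.0868, 0.137 and 0.0596), and without shNT replicate 3 neither were Crk and Syk (adjusted p = 0.0903 and 0.182). Syk was also lost without shDpep2.968 replicate 2 (adjusted p = 0.0824) and Rassf5 without shNT replicate 1 (adjusted p = 0.0507). Talin (Tln1) and filamin A (Flna) had log2 fold changes of 0.06 and 0.09 that did not pass.

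Integrin ligands had 2 higher and 4 lower of 16 tested (41 listed), or 37.5% against 7.59% of all genes (median log2 fold change -0.39). Spp1, which encodes the RGD ligand osteopontin, fell to 10562 and 12511 CPM in the shDpep2.968 libraries and 13876 and 9852 CPM in the shDpep2.759 libraries, with 20140.1, 19516 and 20007 CPM in the shNT libraries (log2 fold change -0.77, SE 0.13; edgeR adjusted p = 0.00346). Mfge8, a bridge between Itgav integrins and apoptotic cells, fell by 0.74 (SE 0.12; edgeR adjusted p = 0.00357). The transglutaminase Tgm2, a fibronectin-binding co-receptor of integrins, rose 2.36-fold (log2 fold change 1.24, SE 0.14; edgeR adjusted p = 0.00025). The laminin chain Lamb2 and Icam5 fell by 0.80 and 0.78, and Icam1, a ligand of the beta2 integrins, rose 1.26-fold (edgeR adjusted p = 0.0101, 0.0451 and 0.0486). Lamb2 was lost without shNT replicate 2 (adjusted p = 0.0587) or 3 (adjusted p = 0.0759). Icam5 was lost in 5 of the 7 fits without 1 library and Icam1 in 6 of the 7, with adjusted p up to 0.215 and 0.208. Lamc1 and F11r had log2 fold changes of -0.16 and -0.17 that did not pass.

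Receptors and partners of thrombospondin had 2 higher and 1 lower of 11 tested (16 listed). The share called was 27.3%, against 7.59% of all tested genes, with a median log2 fold change of 0.29. Cd36, a scavenger receptor that binds thrombospondin-1, rose 1.83-fold (log2 fold change 0.87, SE 0.14; edgeR adjusted p = 0.00257). It had 635 and 802 CPM in the shDpep2.968 libraries, 918 and 936 CPM in the shDpep2.759 libraries and 539, 385 and 412 CPM in the shNT libraries, with no overlap. Lrp8, an apolipoprotein E and reelin receptor, fell by 0.70 on the log2 scale (SE 0.10; edgeR adjusted p = 0.00117). Calreticulin (Calr) rose 1.30-fold (edgeR adjusted p = 0.0493), a call lost in 5 of the 7 fits without 1 library, with adjusted p from 0.0509 to 0.249. Lrp1 and Sirpa had log2 fold changes of 0.48 and 0.29 that did not pass.

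Genes around latent TGF-beta had 2 higher and 1 lower of 22 tested (27 listed). The share called was 13.6%, against 7.59% of all tested genes, with a median log2 fold change of 0.07. Pmepa1 and Smad7, both induced by TGF-beta and both inhibitors of its signalling, rose 3.21-fold and 1.76-fold (edgeR adjusted p = 0.0173 and 0.0222), and the latent TGF-beta binding protein Ltbp4 fell by 1.60 on the log2 scale (edgeR adjusted p = 0.0106). Ltbp4 averaged 0.894 ± 0.365 CPM with shDpep2.968, 0.714 ± 0.181 CPM with shDpep2.759 (SD, n = 2 each) and 2.43 ± 0.719 CPM with shNT (SD, n = 3). Pmepa1 had 5.38 and 4.78 CPM in the shDpep2.968 libraries, 1.29 and 4.57 CPM in the shDpep2.759 libraries and 1.15, 1.15 and 1.29 CPM in the shNT libraries, so that shDpep2.759 replicate 1 lay just above the highest shNT library. Pmepa1 lost its call in 5 of the 7 fits without 1 library (adjusted p from 0.0561 to 0.105), Smad7 in 4 of them (0.0625 to 0.131) and Ltbp4 without shNT replicate 3 (adjusted p = 0.0879). Tgfb1, at a log2 fold change of -0.02, was not called.

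**Figure D5:**
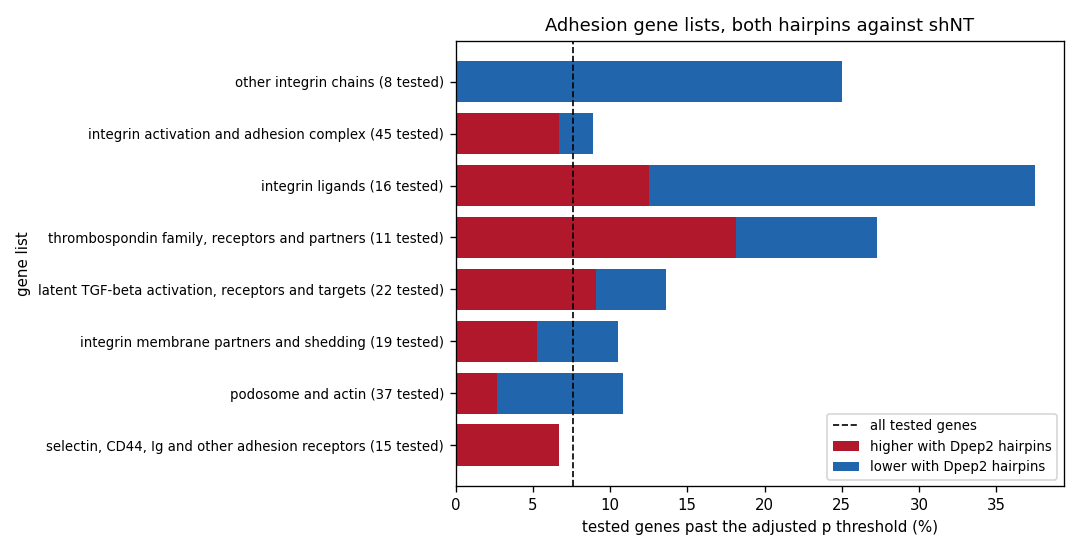
Percent of tested genes past an edgeR adjusted p of 0.05 (horizontal axis) in each of 8 adhesion gene lists (vertical axis), both hairpins against shNT, split into higher and lower; the dashed line is the 7.59% of all tested genes. Integrin ligands (37.5%), thrombospondin partners (27.3%) and other integrin chains (25.0%) lie farthest to the right in this fit, and the other 5 lists between 6.67% and 13.6%. The order changed with DESeq2 (6 of 11 thrombospondin partners and 6 of 16 ligands called), and the dashed line does not apply to those counts.

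For each list in this paragraph, the share to set beside its calls is the 7.59% of all tested genes. Membrane partners and sheddases of integrins had 1 higher and 1 lower of 19 tested (22 listed, 10.5% called). The tetraspanin Tspan3 rose 1.42-fold and Emp2, an integrin-associated tetraspan protein, fell by 0.62 on the log2 scale (edgeR adjusted p = 0.00614 and 0.0258). Tspan3 averaged 169 CPM with shDpep2.968, 245 CPM with shDpep2.759 and 143 CPM with shNT. With shDpep2.968 alone 0 membrane partners were called higher. Tspan3 was lost without shNT replicate 2 (adjusted p = 0.0587) or 3 (adjusted p = 0.0566), and Emp2 in 4 of the 7 fits without 1 library (adjusted p from 0.0605 to 0.106). Adam8 and Cd53 had log2 fold changes of -0.09 and -0.14 that did not pass. Podosome and actin genes had 1 higher and 3 lower of 37 tested (39 listed; 10.8% called). Lsp1, a leukocyte F-actin binding protein, fell by 1.21 on the log2 scale (SE 0.16, edgeR adjusted p = 0.000997). Myo1f, a myosin of leukocytes that acts in integrin-dependent adhesion, rose 1.54-fold (SE 0.10 on the log2 scale, edgeR adjusted p = 0.00272). Myo1f averaged 56.0 CPM with shDpep2.968, 85.9 CPM with shDpep2.759 and 45.1 CPM with shNT. With shDpep2.968 alone 0 podosome and actin genes were called higher. With all hairpin libraries as 1 group Myo1f was not called (edgeR adjusted p = 0.0562). Gelsolin (Gsn) and ezrin (Ezr) fell by 0.53 and 0.43 (edgeR adjusted p = 0.0123 and 0.0209), but Gsn lost its call in 3 and Ezr in 4 of the 7 fits without 1 library (adjusted p up to 0.0900 and 0.128). Lcp1 and Msn had log2 fold changes of 0.01 and -0.08 that did not pass. Of the selectins, CD44-like and other adhesion receptors, 1 of 15 tested rose and 0 fell (6.67% called): Cadm1, by 1.37-fold (edgeR adjusted p = 0.0168), lost in 4 of those fits (adjusted p from 0.0511 to 0.135). Siglec1 and Alcam had log2 fold changes of 0.22 and 0.14 that did not pass.

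Between the hairpins 4 of 173 list genes tested passed the threshold (2.31%, against 0.84% of all tested genes), and all 4 were lower with shDpep2.968 than with shDpep2.759. Of the calls over all genes, 78 were lower and 34 higher with shDpep2.968. The Src-family kinase Fgr had 25.8 and 25.5 CPM in the shDpep2.968 libraries, 58.0 and 40.7 CPM in the shDpep2.759 libraries and 40.8, 42.0 and 36.2 CPM in the shNT libraries (log2 difference -0.95, SE 0.17; edgeR adjusted p = 0.0266). The TGF-beta receptor gene Tgfbr2 had 106.5 and 99.9 CPM in the shDpep2.968 libraries, 163 and 164 CPM in the shDpep2.759 libraries and 159, 154 and 149 CPM in the shNT libraries (log2 difference -0.67, SE 0.12; edgeR adjusted p = 0.0266). For both genes the shDpep2.968 libraries lay below all shNT libraries. For Fgr 1 shDpep2.759 library lay within the shNT range and 1 above it, and for Tgfbr2 both lay just above that range. The adhesion molecule L1cam had a log2 difference of -0.998 (SE 0.19; edgeR adjusted p = 0.0338) and Myo1f of -0.62 (SE 0.13; edgeR adjusted p = 0.0416). Leaving out either shDpep2.968 library, shDpep2.759 replicate 1 or the third shNT library ended each of the 4 calls, at adjusted p between 0.0605 and 0.373.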

How the data were processed

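The deposited table holds counts, whole numbers, with 1 column for each of 7 RAW264.7 libraries and 1 row for each of 55417 symbols. Per the labels' protocols, total RNA was made into TruSeq stranded libraries and sequenced in pairs. Trim Galore and Salmon appear in the submitters' processing notes with neither version nor role, next to a human build, hg38, although the symbols are those of mouse. No source used here gives the annotation, the strand setting or any rounding; for rounded Salmon estimates, a model would have divided reads that related genes share.

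The count test was edgeR 4.0.16 in R 4.3.3 with limma 3.58.1 (filterByExpr, TMM, 1 mean per group over all 7 libraries, robust quasi-likelihood), with Benjamini-Hochberg adjustment over 13329 genes within a comparison and a threshold of 0.05. DESeq2 1.42.0 was an alternative. The fit was run on simulated data with known changes that were the same with both hairpins, and the averaged comparison alone was examined. Those simulations therefore do not bear on calls with a single hairpin or between the hairpins. Library totals are given in the text. No library of a group repeated another: their counts differed beyond sampling noise, with a ratio of chi-square to degrees of freedom between 15.5 and 44.9. Levels per kilobase used the longest coding transcript of GENCODE M21, or the coding length. Promoter windows come from RefSeq, GRCm38.p6, where 6 of the 10 members have an entry.

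The members and the 8 gene lists were chosen with earlier results of these data known, so member differences carry no p-value. Named from each list were the calls of the averaged comparison (up to 6) and 2 members with the highest level that were not called, and up to 4 list genes called between the hairpins; 1 gene that this rule names is not reported here. For Thbs1, Itgax and Itga6 the 3 genes with the nearest profile were named. Other alternatives were other size factors, other low-count filters, a replicate block, leaving out each library, and all hairpin libraries as 1 group.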

Additional observations from a re-analysis of the deposited data

Results flagged for a closer look

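Thbs1, Itga5 and 4 list genes are listed because their effects against shNT differed between the 2 hairpins, shDpep2.968 minus shDpep2.759, past the edgeR quasi-likelihood threshold adjusted over 13329 genes. Among the members, whose levels were known when they were chosen, Thbs1 differed by -1.51 on the log2 scale and Itga5 by -0.86, given as a description; in both, each shDpep2.968 library was below each shDpep2.759 library. Among the list genes, Fgr differed by -0.95 (adjusted p = 0.0266), Tgfbr2 by -0.67 (adjusted p = 0.0266), L1cam by -0.998 (adjusted p = 0.0338) and Myo1f by -0.62 (adjusted p = 0.0416), with the same order of libraries. The remaining Dpep2 level did not differ between the hairpins past the threshold (log2 difference -0.14, 95% interval -0.51 to 0.23, adjusted p = 0.725). Differences due to the hairpins and differences between the cell populations that carry them cannot be told apart in this design.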

How the results depend on the processing

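With 2 or 3 libraries per group the counts of calls depend on single libraries and on the filter; the causes were not tested. Leaving out each library in turn, the genes called with both hairpins against shNT (1012) ranged from 321 to 1468, with shDpep2.968 (700) from 69 to 1309, with shDpep2.759 (630) from 253 to 768 and between hairpins (112) from 6 to 1070. Members called ranged from 3 to 4, 1 to 7, 3 to 4 and 0 to 7 in the same comparisons. List calls with both hairpins ranged from 0 to 4 for other integrin chains, 1 to 7 for the adhesion complex, 3 to 5 for ligands, 2 to 5 for thrombospondin partners, 0 to 4 for TGF-beta genes, 0 to 2 for membrane partners, 2 to 5 for podosome genes and 0 to 3 for other receptors. Of 25 list genes called, 8 (Cd36, Lrp8, Lsp1, Mfge8, Myo1f, Spp1, Src and Tgm2) kept their call in all 7 of those fits.

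With no low-count filter the gene counts were 1590, 1443, 1131 and 669 in the same 4 comparisons. Members called were 6 with shDpep2.968 and 5 between hairpins. List calls were 4 for other integrin chains and 5 each for thrombospondin partners, TGF-beta genes and other receptors. DESeq2 called 376 genes between hairpins, 5 members there, 5 members with shDpep2.968 and 6 thrombospondin partners. With all hairpin libraries as 1 group 551 genes, 1 member, 2 adhesion complex genes, 0 membrane partners and 0 other receptors were called.

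Deviations from the group mean had correlations across genes of -0.23 to 0.07 over 6 pairs of same-numbered libraries. In a group of 2 libraries these deviations mirror each other. The values are therefore not independent and cannot settle whether the numbers pair the samples. A replicate block gave 404, 308 and 312 genes for both hairpins, shDpep2.968 and shDpep2.759 against shNT, 1 member with shDpep2.968, and 1, 1, 3, 1, 1, 2 and 0 calls for other integrin chains, adhesion complex, ligands, TGF-beta genes, membrane partners, podosome genes and other receptors. The other size factors left these counts within 1.5 times. The uncalled difference of Itgb1 between hairpins ranged from -0.13 without shDpep2.968 replicate 2 to 0.30 without shDpep2.968 replicate 1, and was -0.007 without shDpep2.759 replicate 1.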

Other observations

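Among the coding genes next to members in RefSeq's gene order, Gpr84, a medium-chain fatty acid receptor that lies 2 coding genes from Itga5, rose with both hairpins (log2 fold change 0.65, edgeR adjusted p = 0.00396), while its difference between the hairpins was -0.04 (adjusted p = 0.926). Zfp385a, between them, had a log2 fold change of 0.17 (adjusted p = 0.516). On the other side of Itga5, the adjacent Gtsf1 stood at -1.50 on the same scale, short of the threshold (edgeR adjusted p = 0.139). Fam98b, the tested neighbour of Thbs1, stood at 0.09 (edgeR adjusted p = 0.713). Cox6a2, 2 coding genes from Itgax, fell by 1.75 (adjusted p = 0.0335) at 4 to 25 counts per library. The tested neighbours of Itga6 (Dlx1, Pdk1 and Rapgef4) had log2 fold changes from -0.18 to 0.00, none past the threshold. These neighbours were chosen after values had been seen.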
